A study of Penicillium oxalicum with 6 samples.

Results

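*POX_e06829*, *POX_g08739* and *POX_g08892* are 3 genes for putative transcription factors (TFs) of the filamentous fungus *Penicillium oxalicum*, 3 of the 9822 genes listed in each library. They were chosen by the study as TF genes with higher transcript levels in several regulator mutants, among them Δ*rsrC* in these same libraries. Their difference between Δ*rsrC* and Δ*ku70* is therefore described here without a test. The RNA-seq series holds 3 libraries of mycelium from Δ*rsrC* and 3 from the parental strain Δ*ku70*, and it asks how the transcriptome changes once *rsrC*, which encodes a C2H2 zinc-finger TF, is lost. Both strains lack *ku70*, a gene of non-homologous end joining, and per the study both carry the hygromycin resistance marker, while Δ*rsrC* also carries the G418 marker of its knockout cassette. In Δ*rsrC* the gene labelled POX00418 was deleted in the Δ*ku70* background, and the labels call Δ*ku70* the WT genotype. All cultures were grown on glucose for 24 h and sampled 24 h after transfer to a second medium, whose carbon source is named as Avicel in one label, as raw starch in another and as commercial corn starch in the study. The labels do not say whether the 3 libraries of a strain came from separate cultures or transformants, so p-values measure the spread between these libraries only.

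TFs bind DNA near their target genes and raise or lower transcription. In filamentous fungi most of them carry zinc-finger domains, of which the binuclear Zn2Cys6 type is particular to fungi, and they switch the genes of secreted amylases and cellulases on or off with the carbon source. The genes of such regulators are themselves under the control of other TFs. No domain, sequence or function of the 3 genes is given in the sources used here, so that "TF gene" rests on the list of the study alone.

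The deleted gene served as a check of the labels. *rsrC* (*POX_a01508*) was listed at 0 FPKM in each Δ*rsrC* library, against 27.1, 30.3 and 39.0 FPKM in Δ*ku70*. FPKM scales the fragment number of each gene to gene length and to library size, so levels of different genes can be compared. Absolute depth is unknown, and relative depth, read from the steps between low values, ranged from 77.8% to 105% of that of Δ*ku70* replicate 1. The 10 highest genes held 15.9% to 16.6% of all FPKM in Δ*rsrC* and 10.8% to 12.3% in Δ*ku70*. The FPKM of all genes summed to 1493560 to 1536320 in the Δ*rsrC* libraries and to 1274810 to 1317080 in the Δ*ku70* libraries. Mycelium can carry spore-forming structures, and of 3 markers of conidiation the regulator gene *brlA* was at 0.42 to 1.59 FPKM in Δ*rsrC* and 0.81 to 1.71 FPKM in Δ*ku70*, and the summed level of *brlA*, *rodB* and the *rodA*-like gene was 38.2 to 94.1 FPKM in Δ*rsrC* and 155 to 231 FPKM in Δ*ku70*. *rodB* and the *rodA*-like gene fell in Δ*rsrC*, with limma adjusted p-values of 0.0425 and 0.00421, the call of *rodB* being lost in 9 of the 15 alternatives (adjusted p up to 0.105), and none of the 3 markers was at 0 in any library. In mycelium sampled in bulk, fewer cells of a type and less RNA per cell cannot be told apart. The part of these differences between libraries in the values below was not tested.

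*POX_g08739* was the most abundant of the 3 genes. Δ*rsrC* replicates 1, 2 and 3 held 853, 740.2 and 899 FPKM of it, and Δ*ku70* replicates 1, 2 and 3 held 529, 594 and 443 FPKM. Every Δ*rsrC* library stood above every Δ*ku70* library, and the lowest Δ*rsrC* value was 1.25 times the highest Δ*ku70* value. The mean was 830.5 ± 81.5 FPKM (SD, n = 3) in Δ*rsrC* and 522 ± 75.8 FPKM (SD, n = 3) in Δ*ku70*, 59.2% higher. On the log2(FPKM + 1) scale the difference was 0.68 (SE 0.15).

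*POX_e06829* had the smallest gap between the strains relative to its level. In Δ*rsrC* replicates 1, 2 and 3 its level was 481, 408 and 354 FPKM, compared with 247, 278 and 327 FPKM for Δ*ku70* replicates 1, 2 and 3. The groups did not overlap, but Δ*rsrC* replicate 3 exceeded Δ*ku70* replicate 3 by 26.5 FPKM only, which is less than the SD within either strain. The mean was 414 ± 63.8 FPKM (SD, n = 3) in Δ*rsrC* and 284 ± 40.5 FPKM (SD, n = 3) in Δ*ku70*, 45.7% higher, with a log2 difference of 0.54 (SE 0.16).

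*POX_g08892* was the least abundant of the 3 genes. Its level in Δ*rsrC* was 137 FPKM in replicate 1, 98.4 in replicate 2 and 89.6 in replicate 3, and its level in Δ*ku70* was 70.9 FPKM in replicate 1, 75.5 in replicate 2 and 76.6 in replicate 3. The Δ*ku70* libraries were close together, whereas Δ*rsrC* replicate 1 stood well above the other two of its strain. The coefficient of variation was 23.2% in Δ*rsrC* and 4.04% in Δ*ku70*, the widest and the narrowest spread among the 3 genes. The mean was 108 ± 25.1 FPKM (SD, n = 3) in Δ*rsrC* and 74.3 ± 3.00 FPKM (SD, n = 3) in Δ*ku70*, 45.7% higher, with a log2 difference of 0.51 (SE 0.17). Without Δ*rsrC* replicate 1 this difference was 0.33.

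**Figure D1:**
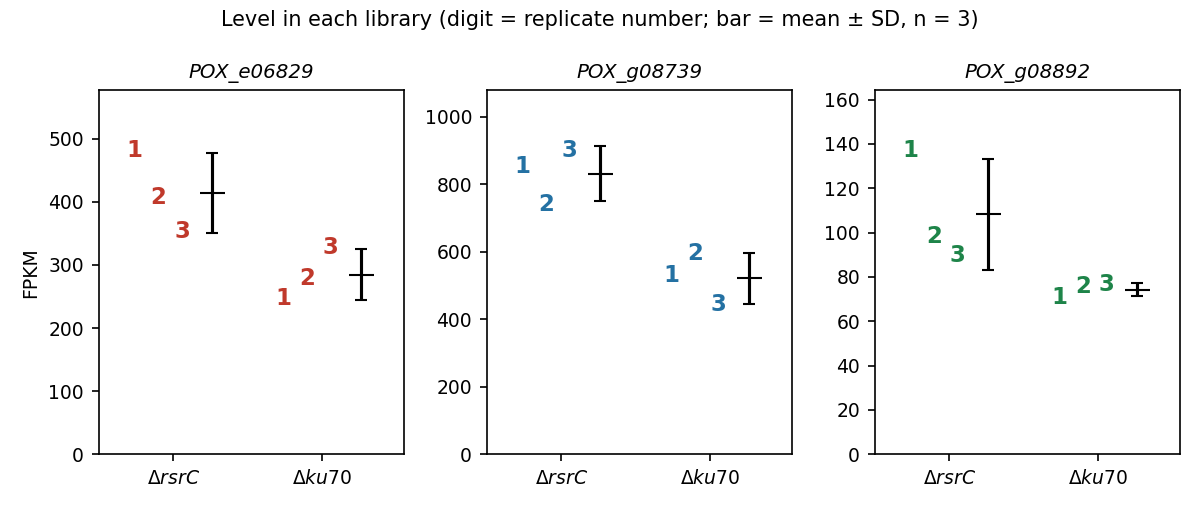
FPKM of *POX_e06829*, *POX_g08739* and *POX_g08892* in each library, with its own vertical axis from 0 for each gene; a digit marks a library by its replicate number, and the bar beside it gives the mean ± SD (n = 3). Every Δ*rsrC* library lies above every Δ*ku70* library, with gaps of 26.5, 146 and 13.0 FPKM for the 3 genes in the order drawn, and with Δ*rsrC* replicate 1 apart from the others for *POX_g08892*.

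In the deposited FPKM all 3 genes were thus higher in Δ*rsrC* with no overlap between the strains. For *POX_e06829* the lowest Δ*rsrC* value was 1.08 times the highest Δ*ku70* value, both in replicate 3. The FPKM of these libraries summed to 1493556 in Δ*rsrC* and 1317078 in Δ*ku70*. After rescaling to equal sums the strains therefore overlap for *POX_e06829*. Genes were tested when their mean over the libraries reached 1 FPKM. Of these 8605 genes, 19.4% were higher without overlap and 35.2% lower without overlap. Since the genes were chosen on this difference, nothing is read from their count. Of the 8605 tested genes, 944 had a larger log2 difference than *POX_g08739*, and 15.3% a larger one than *POX_g08892*. Small log2 differences such as these depend on how the libraries are scaled. With the deposited FPKM the tested genes had a median log2 difference of -0.13, and relative to it *POX_e06829*, *POX_g08739* and *POX_g08892* stood 0.67, 0.81 and 0.65 higher. After rescaling to equal sums (TPM), which moved that median to -0.35, their log2 differences were 0.31, 0.45 and 0.29. After median-ratio scaling, with a median of 0.00, they were 0.68, 0.82 and 0.65. All 3 stayed positive in each of the 15 alternatives tried.

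**Figure D2:**
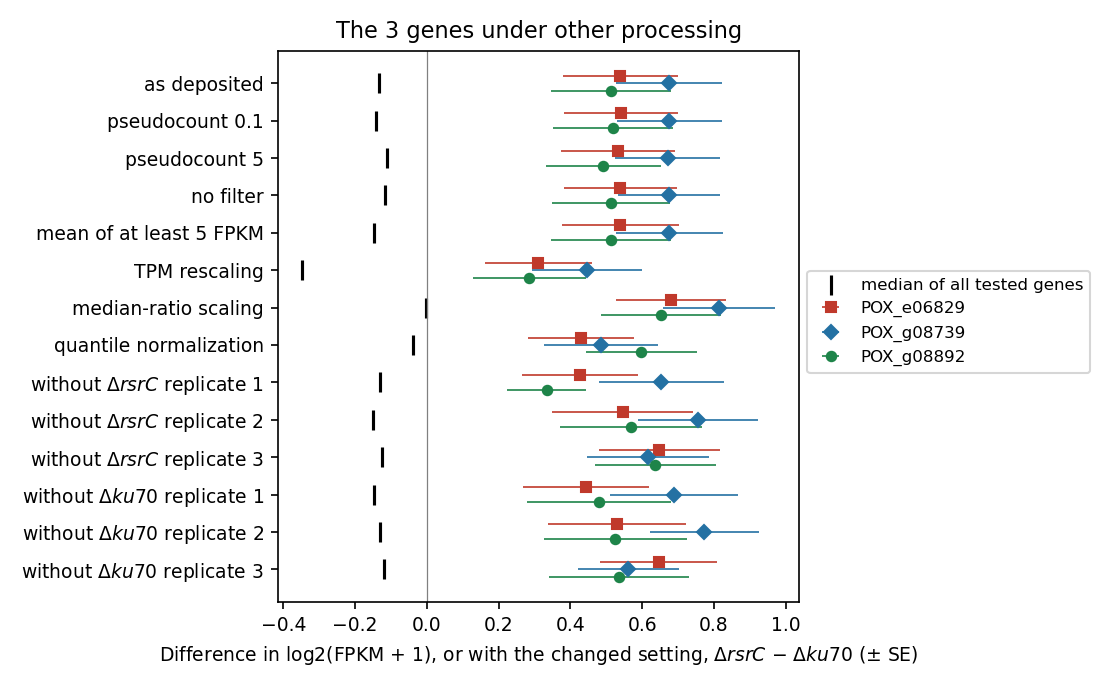
Log2 difference of the 3 genes between Δ*rsrC* and Δ*ku70* (horizontal axis; bars, ± SE of the limma fit) under 14 settings (vertical axis), with the median of all tested genes as a black tick. All 3 genes lie to the right of 0 and of the median in every setting drawn; the lowest values are those after TPM rescaling, 0.29 to 0.45, where the median is -0.35. The alternatives without an intensity trend and with a replicate block leave the differences unchanged and are not drawn. Their SEs differ: with the replicate block they were 0.20, 0.19 and 0.18 for *POX_e06829*, *POX_g08739* and *POX_g08892*.

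The 3 genes did not vary alike within the strains. The ratio of *POX_e06829* to *POX_g08892* was 3.51, 4.14 and 3.95 in Δ*rsrC* replicates 1, 2 and 3 and 3.48, 3.69 and 4.27 in Δ*ku70* replicates 1, 2 and 3, so that these 2 genes kept a proportion of 3.48 to 4.27 throughout. The ratio of *POX_g08739* to *POX_e06829* was more variable, at 1.77, 1.82 and 2.54 in Δ*rsrC* and 2.14, 2.13 and 1.35 in Δ*ku70*. The ratio of *POX_g08739* to *POX_g08892* averaged 7.93 ± 1.93 in Δ*rsrC* and 7.04 ± 1.11 in Δ*ku70* (SD, n = 3 each). Among the Δ*rsrC* libraries *POX_g08739* was highest in replicate 3, where *POX_e06829* and *POX_g08892* were lowest. Among the Δ*ku70* libraries it was lowest in replicate 3, where the other two were highest. All 3 ratios overlapped between the strains. After each gene was centred on its mean log2(FPKM + 1), the root-mean-square (RMS) difference over the 6 libraries was 0.11 between *POX_e06829* and *POX_g08892*, 0.25 between *POX_g08739* and *POX_g08892*, and 0.28 between *POX_g08739* and *POX_e06829*.

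The levels were compared with those of the other putative TF genes of the study. The comparison list is an unlabelled column of gene IDs of the study, taken, from its length, as the TF genes responding to the loss of *rsrA*, a further regulator of raw-starch-degrading enzymes. Such a list is chosen on that response, and per the study most of those TF genes were downregulated in Δ*rsrA*. Whether the Δ*ku70* libraries used there are the present ones is not stated in the sources used here. The list holds the 3 genes and 302 others. By mean level, *POX_g08739* was the fifth of the list in Δ*rsrC* and the fourth in Δ*ku70*. In Δ*rsrC* its neighbours in that order were *POX_g08654* at 895 ± 114 FPKM and *POX_g09062* at 497 ± 47.0 FPKM (SD, n = 3 each), and it differed from *POX_g08654* by less than the spread between libraries. In Δ*ku70* its neighbours were *POX_g09062* at 642 ± 20.8 FPKM and *POX_d05083* at 493 ± 35.1 FPKM (SD, n = 3 each), and *POX_d05083* lay within its spread. *POX_e06829* was the seventh in Δ*rsrC*, above *POX_e06888* at 267 ± 22.1 FPKM (SD, n = 3). It was the ninth in Δ*ku70*, where *POX_e06888* at 281 ± 33.5 FPKM (SD, n = 3) differed from it by less than the spread. *POX_g08892* was at place 33 in Δ*rsrC* and at place 69 in Δ*ku70*. Together the 3 genes held 7.28% ± 0.673 (SD, n = 3) of the FPKM of the list in Δ*rsrC* and 4.56% ± 0.357 (SD, n = 3) in Δ*ku70*, while the sum of the whole list was 18593 ± 689 FPKM in Δ*rsrC* and 19316 ± 455 FPKM in Δ*ku70* (SD, n = 3 each). Since the genes were chosen as higher in Δ*rsrC*, nothing is read from their larger share there or from the change of place of *POX_g08892*.

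Most of the other listed TF genes had lower levels in Δ*rsrC*. Because the list, as taken here, is mainly of genes downregulated in Δ*rsrA*, its direction is not read as that of TF genes in general. Of the 302 other genes, 300 reached the mean of 1 FPKM needed for the test, 67 with a positive and 233 with a negative log2 difference, and their median was -0.30 against -0.13 for all tested genes. At a limma adjusted p-value under 0.05 over all tested genes, 15 were upregulated and 116 downregulated, and 169 did not pass. Over all tested genes, 39.3% passed, 13.8% upregulated and 25.6% downregulated. Among the 36 other listed genes averaging at least 100 FPKM over the libraries, 8 were upregulated and 8 downregulated with the deposited FPKM. This split does not hold after TPM rescaling, where 7 listed genes in all were upregulated. The share over all tested genes at such levels was not taken, so nothing is read from it. *POX_g08739* and *POX_e06829* were at such levels, averaging 676 and 349 FPKM, and *POX_g08892* averaged 91.3 FPKM. The split of the 300 genes depended on the scaling: 7 were upregulated and 179 downregulated after TPM rescaling, and 31 and 76 after median-ratio scaling. Over all tested genes the same fits called 745 upregulated and 3655 downregulated, and 1623 and 1489. With 1 library left out, it was mainly the number of calls that changed, to 8 to 17 upregulated and 71 to 96 downregulated. There were 8 and 71 without Δ*rsrC* replicate 1, and 8 and 82 without Δ*rsrC* replicate 2. Without Δ*ku70* replicate 2 there were 9 and 81, and without Δ*ku70* replicate 3 there were 17 and 96. In the list ordered by log2 difference, *POX_g08739* stood between *POX_f08115* (0.72) and *POX_e07229* (0.65), and *POX_e06829* and *POX_g08892* followed each other between *POX_h09449* (0.55) and *POX_b02077* (0.47). Nothing is read from these places, as the 3 genes were chosen on this difference.

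**Figure D3:**
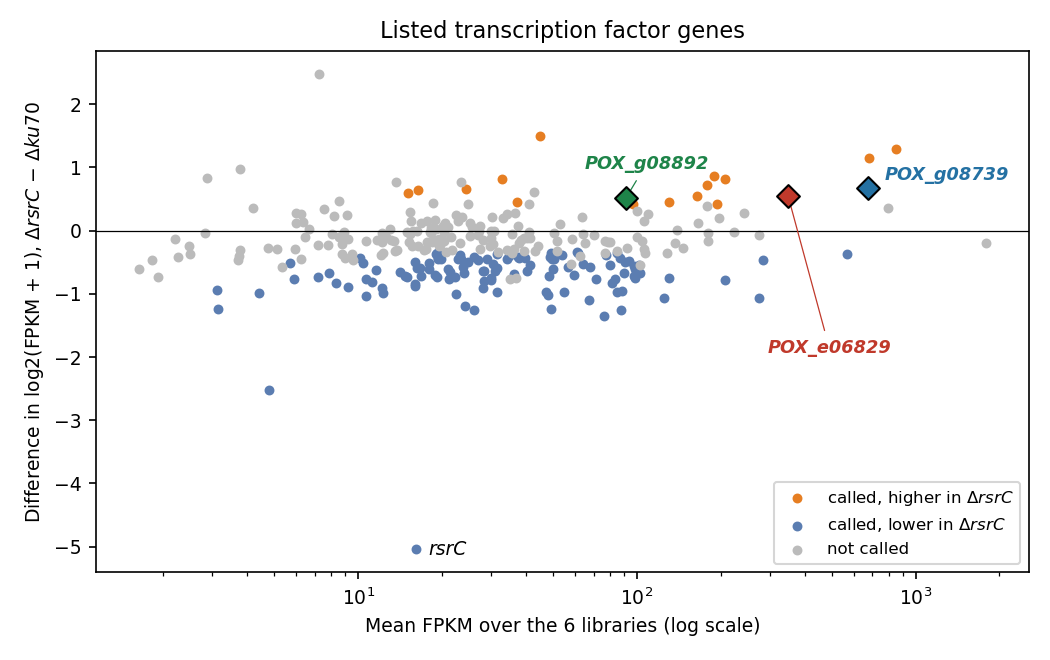
Log2 difference between Δ*rsrC* and Δ*ku70* (vertical axis) against the mean FPKM over the 6 libraries (horizontal axis, log scale) for the listed TF genes; diamonds mark the 3 genes, circles the 300 other tested genes, coloured by their call at a limma adjusted p-value under 0.05. The 3 genes lie at 0.51 to 0.68, above most of the list, whose median is -0.30. They were chosen as higher in Δ*rsrC*, so nothing is read from this place. The deleted gene *rsrC* is at the bottom.

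The 5 largest rises among the other listed genes, among called genes that reached 10 FPKM on average in Δ*rsrC* and did not overlap, were those of *POX_f08033*, *POX_d05083*, *POX_e06864*, *POX_d04827* and *POX_f08162*. *POX_d05083* and *POX_e06864* had lower means than *POX_g08739* in Δ*ku70* and higher means in Δ*rsrC*. *POX_d05083* was at 1209 ± 126 FPKM in Δ*rsrC* and 493 ± 35.1 FPKM in Δ*ku70* (SD, n = 3 each), with a log2 difference of 1.29 (SE 0.13, limma adjusted p = 0.00128). *POX_e06864* was at 946 ± 286 FPKM in Δ*rsrC* and 417 ± 47.9 FPKM in Δ*ku70* (SD, n = 3 each), with a log2 difference of 1.14 (SE 0.22, limma adjusted p = 0.00835). *POX_f08033* rose 2.86-fold to 66.3 ± 12.9 FPKM (SD, n = 3), and *POX_d04827*, annotated by the study as a winged-helix TF, 1.82-fold to 245 ± 19.5 FPKM (SD, n = 3). The rise of *POX_f08162* (log2 difference 0.82, limma adjusted p = 0.0399) did not pass in 8 of the 15 alternatives, with adjusted p-values of up to 0.112.

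By the same limits, with 10 FPKM on average in Δ*ku70* and no overlap, the falls of largest size after the deleted *rsrC* itself were those of *POX_f07463*, *POX_c03965*, *POX_d05267* and *POX_e06677*. Their log2 differences were -1.26, -1.25, -1.25 and -1.19, with limma adjusted p-values of 0.00110 to 0.00857, and their mean FPKM changed by -57.8% to -59.5%. *POX_f07463* was at 46.1, 50.7 and 57.1 FPKM in Δ*rsrC* and at 118, 113 and 141 FPKM in Δ*ku70*. *POX_c03965*, annotated by the study as a Zn2Cys6 TF, was at 13.7, 17.6 and 13.8 FPKM in Δ*rsrC* and at 32.3, 35.2 and 43.7 FPKM in Δ*ku70*. The groups did not overlap in either gene.

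Of the other regulators examined here, all named in the study, 2 fell and 3 did not pass the test. The study names further ones, such as CxrA, CxrB and NsdD, which were not examined. *creA*, the gene of the carbon catabolite repressor, fell in Δ*rsrC* with a log2 difference of -0.61 (limma adjusted p = 0.0126), and *rsrA* with -0.49 (adjusted p = 0.0329), a call that was lost in 7 of the 15 alternatives, with adjusted p-values of up to 0.189. The log2 difference of *rsrB* was 0.21 (adjusted p = 0.278), and it was -0.02 after TPM rescaling. The study counts *rsrB* among the upregulated genes of Δ*rsrC*, by its own test and threshold. For *amyR*, the gene of the amylase activator, it was -0.32 (adjusted p = 0.0587) and for *cxrC* -0.29 (adjusted p = 0.0816), and both passed after TPM rescaling. *rsrB* was at 68.1 ± 4.55 FPKM in Δ*rsrC* and 59.2 ± 10.5 FPKM in Δ*ku70* (SD, n = 3 each), a level close to that of *POX_g08892* in Δ*ku70*. In the RefSeq gene order *rsrB*, *POX_g08739* and *POX_g08892* lie on 1 chromosome, with 46 genes between *rsrB* and *POX_g08739* and 151 between *POX_g08739* and *POX_g08892*, and *POX_e06829* lies on another.

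The genes beside the 3 genes were examined because position was not used to choose them. Of the 30 genes within 5 gene numbers on either side, all were tested, 6 were upregulated and 3 downregulated. Of all tested genes, 13.8% and 25.6% were. After TPM rescaling 9 of the 30 were downregulated, as were 3655 of all 8476 genes tested then. The 10 genes around *POX_e06829* included 0 upregulated and 2 downregulated genes. The nearest genes on both sides, *POX_e06828* and *POX_e06830*, had log2 differences of 0.13 and -0.38 with limma adjusted p-values of 0.702 and 0.0556. *POX_e06832* fell to 19.0 ± 1.45 FPKM in Δ*rsrC*, against 57.0 ± 15.5 FPKM in Δ*ku70* (SD, n = 3 each; log2 difference -1.50, limma adjusted p = 0.00270), and *POX_e06826* had a log2 difference of -0.95 (adjusted p = 0.00779).

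Around *POX_g08739* 2 genes were upregulated and 1 downregulated. *POX_g08737* was at 371 ± 30.8 FPKM in Δ*rsrC* and 198 ± 14.9 FPKM in Δ*ku70* (SD, n = 3 each), with a log2 difference of 0.90 (limma adjusted p = 0.00269). *POX_g08741* had a log2 difference of 0.63 (adjusted p = 0.00721) and *POX_g08743* -0.42 (adjusted p = 0.0154), the last not passing in 3 of the 15 alternatives. The directly adjacent genes *POX_g08738* and *POX_g08740*, with log2 differences of 0.35 and -0.14, did not pass (adjusted p = 0.177 and 0.412).

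Around *POX_g08892* 4 genes were upregulated and 0 downregulated. *POX_g08893*, the next gene, changed most of the 30, with 232.5, 98.5 and 100.5 FPKM for Δ*rsrC* replicates 1, 2 and 3, compared with 23.9, 26.2 and 35.0 FPKM for Δ*ku70* replicates 1, 2 and 3. Its log2 difference was 2.20 (SE 0.34, limma adjusted p = 0.00455), and as for *POX_g08892* itself, Δ*rsrC* replicate 1 was the highest library. *POX_g08890*, *POX_g08894* and *POX_g08897* had log2 differences of 1.09, 1.15 and 0.81 (adjusted p = 0.0108, 0.0131 and 0.0127). Without Δ*rsrC* replicate 1 the log2 difference of *POX_g08894* was 1.05, and it did not pass (limma adjusted p = 0.0512). On the other side, *POX_g08891* had no overlap between the strains, at 32.5 to 49.8 FPKM in Δ*rsrC* and 26.9 to 31.0 FPKM in Δ*ku70*, but did not pass (adjusted p = 0.109). *POX_g08888* and *POX_g08896* did not overlap either and did not pass, with lower values in Δ*rsrC*: *POX_g08888* was at 28.1 to 28.8 FPKM in Δ*rsrC* and 31.7 to 45.2 FPKM in Δ*ku70*, and *POX_g08896* at 20.1 to 24.8 FPKM in Δ*rsrC* and 26.6 to 52.9 FPKM in Δ*ku70*. The α-glucosidase gene *POX_g08885* lies outside these numbers, 7 before *POX_g08892*, and was picked from its values, so it is given without a test, at 149 to 182 FPKM in Δ*rsrC* and 61.6 to 73.9 FPKM in Δ*ku70*. *POX_g08895* and *POX_g08896* had log2 differences of -0.53 and -0.60 (adjusted p = 0.0880 and 0.104), opposite in sign to those of the called genes around them. No gene of the RefSeq table overlapped any of the 3 genes.

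**Figure D4:**
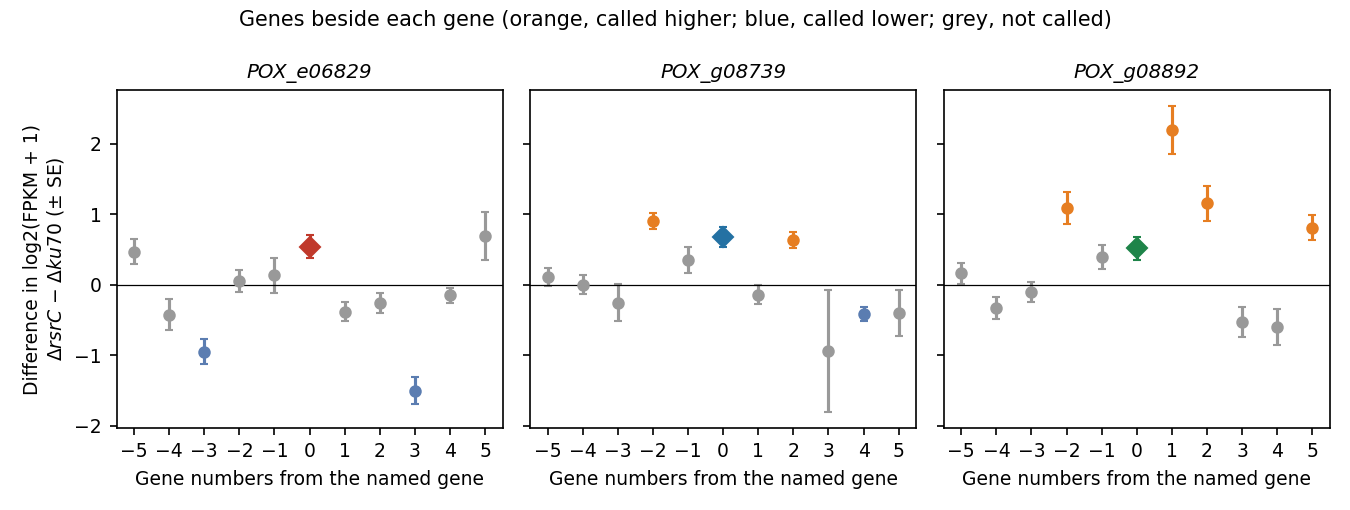
Log2 difference between Δ*rsrC* and Δ*ku70* (vertical axis; bars, ± SE of the limma fit) for the 5 gene numbers on each side of *POX_e06829*, *POX_g08739* and *POX_g08892* (horizontal axis, gene numbers from the named gene; diamond at 0). Orange circles were called higher, blue circles lower and grey circles not called at a limma adjusted p-value under 0.05; upregulated genes number 0, 2 and 4 around the 3 genes in that order, with the highest value, 2.20, next to *POX_g08892*.

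The genes with the most similar profiles were looked for among all tested genes, by the RMS difference of centred log2(FPKM + 1) over the 6 libraries. They were chosen for their likeness, so their differences are given without a test. Closest to *POX_e06829* were *POX_f07998*, *POX_g08717* and *POX_a01084*, at RMS differences of 0.033, 0.054 and 0.061. *POX_f07998* was a far more abundant gene, at 1832, 1600 and 1396 FPKM in Δ*rsrC* and 1003, 1058 and 1261 FPKM in Δ*ku70*, in the same order of libraries as *POX_e06829*. Closest to *POX_g08739* were *POX_f07720*, *POX_a00292* (annotated by the study as a member of glycoside hydrolase family GH109) and *POX_c04175*, at 0.066, 0.096 and 0.11. Closest to *POX_g08892* were *POX_c03834*, *POX_a00114* and *POX_c03881*, all annotated by the study as hypothetical proteins, at 0.063, 0.069 and 0.075. None of the 9 genes is on the list of TF genes. *POX_g08892* was itself close to *POX_e06829*, with 88 tested genes closer, whereas 864 genes were closer to *POX_g08739* than *POX_e06829* was.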

How the data were processed

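The labels describe selection of mRNA by its polyA tail and random priming. The study names BGISEQ sequencing, BWA, Bowtie2 and RSEM, whereas the submitters' processing notes list HISAT2 and bcl2fastq, and the genome build is not given in the sources used here. The authors deposited 1 table of FPKM per library, rounded to 2 decimals, with no pooling. FPKM depends on all mapped fragments, so a few abundant genes shift all others.

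Values were transformed as log2(FPKM + 1), which understates changes of low genes. Genes averaging 1 FPKM or more over the libraries, 8605 in all, were fitted with limma (version 3.58.1, R 4.3.3; lmFit, eBayes with an intensity trend), Δ*rsrC* minus Δ*ku70*, no covariate, two-sided, with Benjamini-Hochberg adjustment over all of them. The study's NOISeq comparison needs counts, which FPKM does not hold. The fit was also run on simulated data with far fewer changed genes than were called here, and no result rests on that run. Gene order came from the RefSeq table of assembly ASM172317v3, which matched 9718 of 9822 IDs. Groups came from the sample titles.

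The 3 genes, the lists and the tests were chosen with earlier results of these data known. Named by rule were the 3 genes, the 3 genes closest in profile to each, called genes within 5 gene numbers, the 5 largest rises and falls among called listed TF genes (at least 10 FPKM, no overlap), named regulators and conidiation markers. Named outside the rule, after their values were seen, were genes that place the 3 genes in an order, uncalled genes beside them and the α-glucosidase gene *POX_g08885*. No sequence was analysed here. Alternatives changed the pseudocount, filter, scaling, trend, block or libraries.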

Additional observations from a re-analysis of the deposited data

How the results depend on the processing

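The log2 differences of *POX_e06829*, *POX_g08739* and *POX_g08892* kept their sign in all 15 alternatives. They moved by more than 1 SD between libraries for *POX_e06829* (0.31) and *POX_g08739* (0.45) after TPM rescaling and for *POX_g08739* (0.48) after quantile normalization. With 1 library left out they were 0.43 to 0.65, 0.56 to 0.77 and 0.33 to 0.64.

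After TPM rescaling 745 genes were called higher and 3655 lower over all tested genes, 7 listed TF genes up and 179 down, and 9 genes beside the 3 genes down, and the log2 difference of *rsrB* POX_g08691 became -0.016. After median-ratio scaling 31 listed TF genes were up and 76 down, and after quantile normalization 27 and 68. Over all tested genes these 2 fits called 1623 higher and 1489 lower, and 1373 and 1479. Rescaling by 1 factor per library moves all small differences by construction. For quantile normalization the cause was not tested. In the 6 fits that left out 1 library, the calls over all tested genes numbered 2126 to 3476, against 3386 with all libraries, 762 to 1271 of them higher and 1364 to 2205 lower. The listed TF genes up were 8 to 17 and down 71 to 96, and the genes beside the 3 genes up were 5 to 8 and down 3 to 4. The log2 difference of *brlA* POX_c03558, near 1 FPKM, was -0.19 to 0.15 in 4 of these fits, positive without Δ*rsrC* replicate 3, and its mean fell below the filter without Δ*rsrC* replicate 1 or Δ*ku70* replicate 3.

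Replicate numbers gave no sign of pairing: after subtracting each strain's mean, libraries with 1 number had correlations over genes of 0.00, -0.13 and -0.24. Libraries with different numbers had correlations of -0.10 to 0.22. Such values cannot settle whether libraries were paired, as the mean of only 3 libraries was subtracted. With the replicate block 2213 genes were called, 785 higher and 1428 lower, and 8 listed TF genes were up and 72 down. Absolute depth is unknown, so no detection floor was set, and changes of low genes are understated.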
